A study of Sus scrofa with 12 samples.

Results

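Far loops were defined as H3K27ac BL-HiChIP loops of pig skeletal muscle whose anchors both lie more than 20 kb from the body of any protein-coding gene. The rule found 12380 such loops among the 122406 different loops of 4 libraries, or 10.1% of them. Each loop joins a pair of 5-kb bins, called anchors, on the same chromosome of the Sscrofa11.1 genome, and the members were chosen by position alone, from 19550 protein-coding genes of the RefSeq annotation of that genome.

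The loops come from H3K27ac BL-HiChIP, which joins neighbouring DNA ends of a nucleus by way of a bridge linker and enriches the joined fragments with an antibody against acetylated lysine 27 of histone H3. Longissimus muscle of 2-week-old piglets was used, with 2 libraries from LW, a commercial lean breed, and 2 from MS, a Chinese local breed, and the labels name no treatment or engineered allele for either. The study's methods speak of a pair of male piglets and of libraries made in duplicate, which can be read as a single animal per breed. GRID-seq libraries of the same tissue and age, 2 per breed, list the chromatin-associated RNAs (caRNAs) and the 1-kb DNA bins to which each RNA was ligated. The labels number the libraries of a breed but do not tie each of them to a piglet, so that the spread between replicates may be technical and the p-values measure that spread only. Whole muscle holds fibres together with fibroblasts, fat, vessel and immune cells. Of 11 muscle fibre markers, 6 to 7 were among the listed caRNAs of each library, including TTN, CKM and MYH7, while MYH1, MYH2, MYH4 and ACTA1 were not listed under these names. Of 5 fibroblast markers 2 to 3 were listed, and of the 3 adipocyte, 2 endothelial and 1 immune markers 0 were listed in any library.

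Acetylated lysine 27 of histone H3 marks active promoters and active enhancers, the DNA elements that raise the transcription of a gene from a distance. Loops let an enhancer meet its promoter, and enhancers also meet each other, so that several of them may gather around a gene that needs them. Genes that guide development are known for such enhancers spread through the gene-poor regions at their sides. RNA that stays on chromatin after transcription is found mostly near the gene that made it, and a few RNAs spread over other chromosomes.

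Far loops made up a similar share of each library. They numbered 5920 of 57028 loops (10.4%) in LW replicate 1, 4395 of 43282 (10.2%) in LW replicate 2, 4205 of 45061 (9.33%) in MS replicate 1 and 3187 of 33353 (9.56%) in MS replicate 2. Both LW shares lay above both MS shares, by 0.824 percentage points on average, and the exact permutation test gave p = 0.333, the smallest that 2 against 2 libraries allow. Bins more than 20 kb from a coding gene made up 39.1% of the genome's 5-kb bins but only 17.7% of the loop anchors, 12643 in number. A further 17812 loops (14.6%) had exactly 1 such anchor. The far share was lowest on chromosome 12, at 3.87% of its loops, and on chromosome 6, at 4.51%, and among the autosomes it was highest on chromosome 16, at 17.1%. Chromosomes 12 and 6 carried 1121 and 2072 placed coding genes, against 345 on chromosome 16.

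Far loops were shorter than the other loops in every library. Their median distance was 30 kb in LW replicate 1, 25 kb in LW replicate 2, 35 kb in MS replicate 1 and 20 kb in MS replicate 2. The medians of the other loops were 55, 45, 55 and 40 kb in the same order. The difference was -21.25 kb ± 2.5 (SD, n = 4 libraries), with an exact sign-flip permutation p = 0.125, the smallest that 4 libraries allow. Against other loops whose anchors both lie outside coding genes the difference shrank to -7.5 kb, in the same direction (exact p = 0.125). The rule itself favours short loops, since bins close together tend to lie at a like distance from genes. Its part in the difference was not tested. Loops under 50 kb were 62.0% of the far loops and 49.0% of the others on average. The mean difference was 12.98 percentage points, the same in direction in 4 of 4 libraries. The far loops of the breeds had the same mean of medians, 27.5 kb each.

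**Figure D1:**
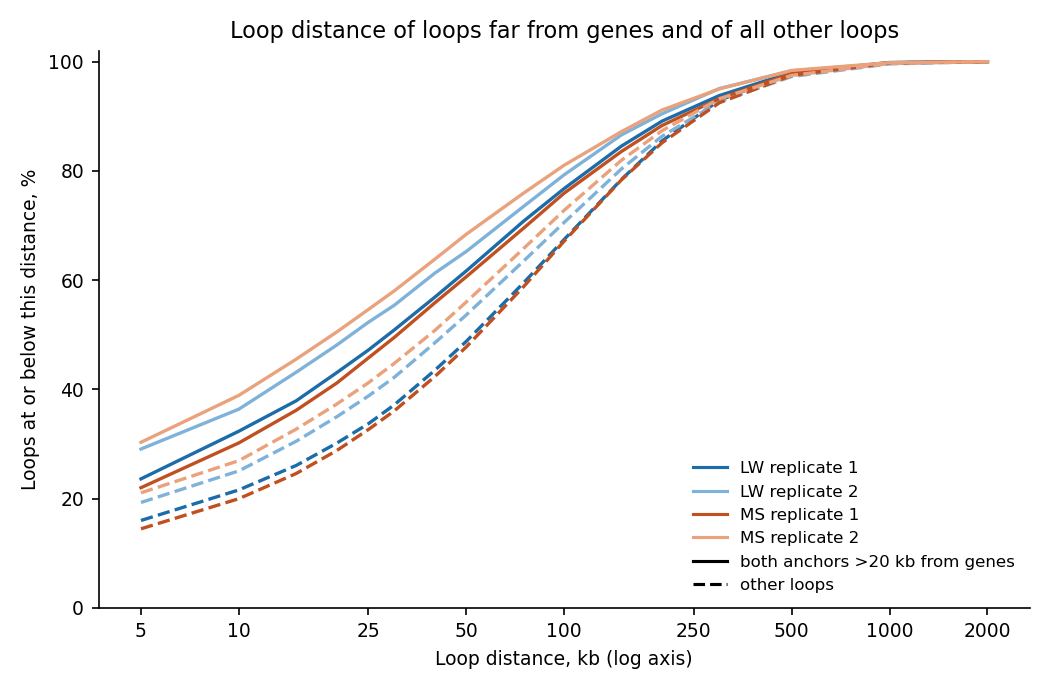
Cumulative share of loops (y axis, %) by the distance between their anchors (x axis, kb, log scale) in each of the 4 BL-HiChIP libraries, with solid lines for far loops and dashed lines for all other loops. In each library the solid line runs above the dashed one over the shorter distances: 23.6% of the far loops and 16.0% of the others in LW replicate 1 spanned 5 kb.

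Strength here means the negative log10 of a loop's false discovery rate (FDR), so that the weakest listed loops sit at 2. Far loops had a lower median strength than other loops in 4 of 4 libraries. The medians were 3.65, 4.01, 3.37 and 3.99 in LW replicates 1 and 2 and MS replicates 1 and 2, against 3.90, 4.27, 3.67 and 4.37 for the other loops. The difference was -0.298 ± 0.0558 (SD, n = 4, exact sign-flip p = 0.125), and it was -0.297 when taken within 5 bands of distance and averaged. Loops with a strength above 10 formed 11.2% of the far and 15.1% of the other loops on average.

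Far loops were found again in the other replicate of their breed about as often as other loops. The shares were 26.4%, 35.5%, 25.6% and 33.8% for far loops in the 4 libraries in the order above, and 26.6%, 35.0%, 25.8% and 35.0% for the others. The mean difference of -0.291 percentage points was smaller than its spread of 0.717 (SD, n = 4, exact sign-flip p = 0.625), and it turned to 0.797 within bands of distance. When anchors were allowed to differ by 1 bin, 53.7% of the far loops and 55.8% of the others had a partner, a difference of -2.17 points ± 1.63 (exact sign-flip p = 0.125). The 2 libraries of a breed were compared with each other, so the 4 values rest on 1 pair of lists per breed. They are not independent, and these p-values treat them as if they were. Of all far loops, 70.8% were listed in 1 library, 18.8% in 2, 7.04% in 3 and 3.38% in all 4, against 68.9%, 19.6%, 7.63% and 3.83% of the others.

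The overlap of far loops did not follow breed alone. LW replicate 2 and MS replicate 2 shared 1410 far loops, which is 32.1% of the first list and 44.2% of the second. LW replicates 1 and 2 shared 1562, or 26.4% and 35.5% of their lists, and MS replicates 1 and 2 shared 1076, or 25.6% and 33.8%. Of the far loops of either list, 22.8% were in both for the pair of replicates 2, the largest share of the 6 pairs, against 17.8% for the LW pair and 17.04% for the MS pair. By this share the overlap did not follow the replicate number in each same-numbered pair. LW replicate 1 and MS replicate 1 had 13.7% in common, the smallest share of the 6. Among other loops these 4 pairs shared 24.6%, 17.8%, 17.4% and 16.4%. The unlike-numbered pairs, LW 1 with MS 2 and LW 2 with MS 1, had 13.9% and 14.3% of far loops in common. Of other loops they had 14.8% and 15.6%. The part of list length in these shares was not tested. Far loops listed in exactly 1 library of each breed more often carried the same replicate number. Of these, 464 had number 1 in both breeds and 457 had number 2, against 231 and 247 in the unlike-numbered pairs. Other loops did the same, with 5154 and 4642 against 2064 and 2363, so this was not particular to far loops. What the number stands for is not given in the labels.

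Far anchors, the 9769 bins at the ends of far loops, lay a median of 80.3 kb and at most 1475 kb from the nearest coding gene. By this distance, 4501 far loops had their nearer anchor 20 to 50 kb from a gene, 3260 lay 50 to 100 kb away, 3299 lay 100 to 250 kb away, 1125 lay 250 to 500 kb away and 195 lay over 500 kb away. Just inside the limit, 1042 loops at 20 to 25 kb had a median distance of 25 kb and were in all 4 libraries in 3.17% of cases, and just outside it, 1258 loops at 15 to 20 kb had a median of 30 kb and were in all 4 in 3.97%. Long non-coding RNA genes of the annotation overlapped 2675 far anchors (27.4%), against 17.8% of the other anchors that lie outside coding genes. In all, 751 of the 5425 placed genes of this kind touched a far anchor.

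Few far loops spanned a coding gene. No coding gene lay between the anchors of 11704 far loops (94.5%), whose median distance was 25 kb, and the other 676 had a median distance of 335 kb. That share was not counted for the other loops, so it cannot be read as particular to far loops. Both anchors had the same nearest gene in 9015 loops (72.8%). Loops over a gene were in all 4 libraries in 3.25% of cases and loops over none in 3.38%.

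Another kind of contact ties far anchors to genes, namely a loop of the same lists from a far anchor to a bin within 1 kb of a gene end. Such a loop left 3366 far anchors (34.5%). Of these, 59.0% reached the gene nearest to them and 88.8% reached a gene next to the interval in which they lie. In total 1329 coding genes were reached, and 1815 were the nearest gene of at least 1 far anchor.

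Far loops gathered in clusters, defined as loops joined through shared anchors over the 4 libraries. There were 1711 clusters, of which 782 were single loops. The 266 clusters of 10 or more loops held 74.0% of all far loops, and the 47 clusters of 50 or more held 35.6%. The other loops were not clustered for comparison, so gathering cannot be read as particular to far loops. Of the 266, 255 had loops in all 4 libraries. When only loops listed in at least 2 libraries were joined, a choice made after seeing the data, the largest cluster fell from 294 to 111 loops and 79 clusters of 10 or more were left. Of the 47 largest clusters, 13 enclosed exactly 1 coding gene, 24 enclosed none, and 23 enclosed at least 1.

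The largest cluster, with 294 far loops among 75 anchors, lay on chromosome 14 from 56150001 to 56645000 between TOMM20, a receptor of mitochondrial protein import, and TARBP1, an RNA methyltransferase. It enclosed IRF2BP2, a transcriptional corepressor, and the uncharacterised coding gene LOC110256820, whose body overlaps that of IRF2BP2. The cluster had 136, 106, 144 and 98 loops in LW replicates 1 and 2 and MS replicates 1 and 2, and 66 of its loops ran over the enclosed genes. Loops to the ends of IRF2BP2 left 36 of the 75 anchors, with 23, 27, 24 and 20 such loops in the 4 libraries. LOC110256820 was reached from 33 of them with 20, 22, 20 and 18 loops, and at this resolution the contacts of these overlapping genes cannot be told apart. TOMM20 and TARBP1 were each reached from 1 anchor. Its busiest anchor, at 56450001 to 56455000, held 34 far loops and lay 90.0 kb from the nearest gene. Anchors on either side of the enclosed genes were thus joined to each other and to the ends of these genes in all 4 libraries.

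The second cluster, of 212 loops on chromosome 16 from 45610001 to 47195000, enclosed PIK3R1, the regulatory subunit of the kinase that carries the insulin signal. It had 103, 65, 75 and 39 loops in the 4 libraries, and 32 of its 107 anchors reached an end of PIK3R1. Only 1 of its loops ran over the gene, so that the loops before and behind PIK3R1 were otherwise separate groups. That loop was listed in 1 MS library and in no LW library. CD180, a membrane protein of B cells, flanked it on the left and was reached from 0 of its anchors.

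The third cluster, of 211 loops on chromosome 1 from 208060001 to 209140000, enclosed NFIB, a nuclear factor I transcription factor, between ZDHHC21, a palmitoyltransferase, and MPDZ, a scaffold protein of cell junctions. Loops numbered 112, 66, 79 and 64, and 67 ran over NFIB. Its busiest anchor, 32.4 kb from NFIB on the non-coding gene LOC100514506, held 34 far loops. NFIB ends were reached from 29 of 75 anchors, with 5 and 18 contact loops in the LW libraries, replicate 1 first, and 7 and 16 in those of MS, so that replicate 2 was above replicate 1 in both breeds.

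The fourth cluster, of 208 loops on chromosome 10 from 65730001 to 66685000, enclosed KLF6, a zinc finger transcription factor induced by injury, and had 90, 59, 94 and 47 loops in the 4 libraries. KLF6 was reached from 21 of its 90 anchors. LOC100738684 lay 24.3 kb to its left and was reached from 0, and PITRM1, a mitochondrial peptidase, lay 311.9 kb to its right. Only 2 of the 208 loops ran over KLF6, each listed in 1 LW library and in no MS library. Joining only loops in at least 2 libraries gave a cluster of 56 loops from 65735001 to 66435000, with KLF6 beside it and not inside.

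**Figure D2:**
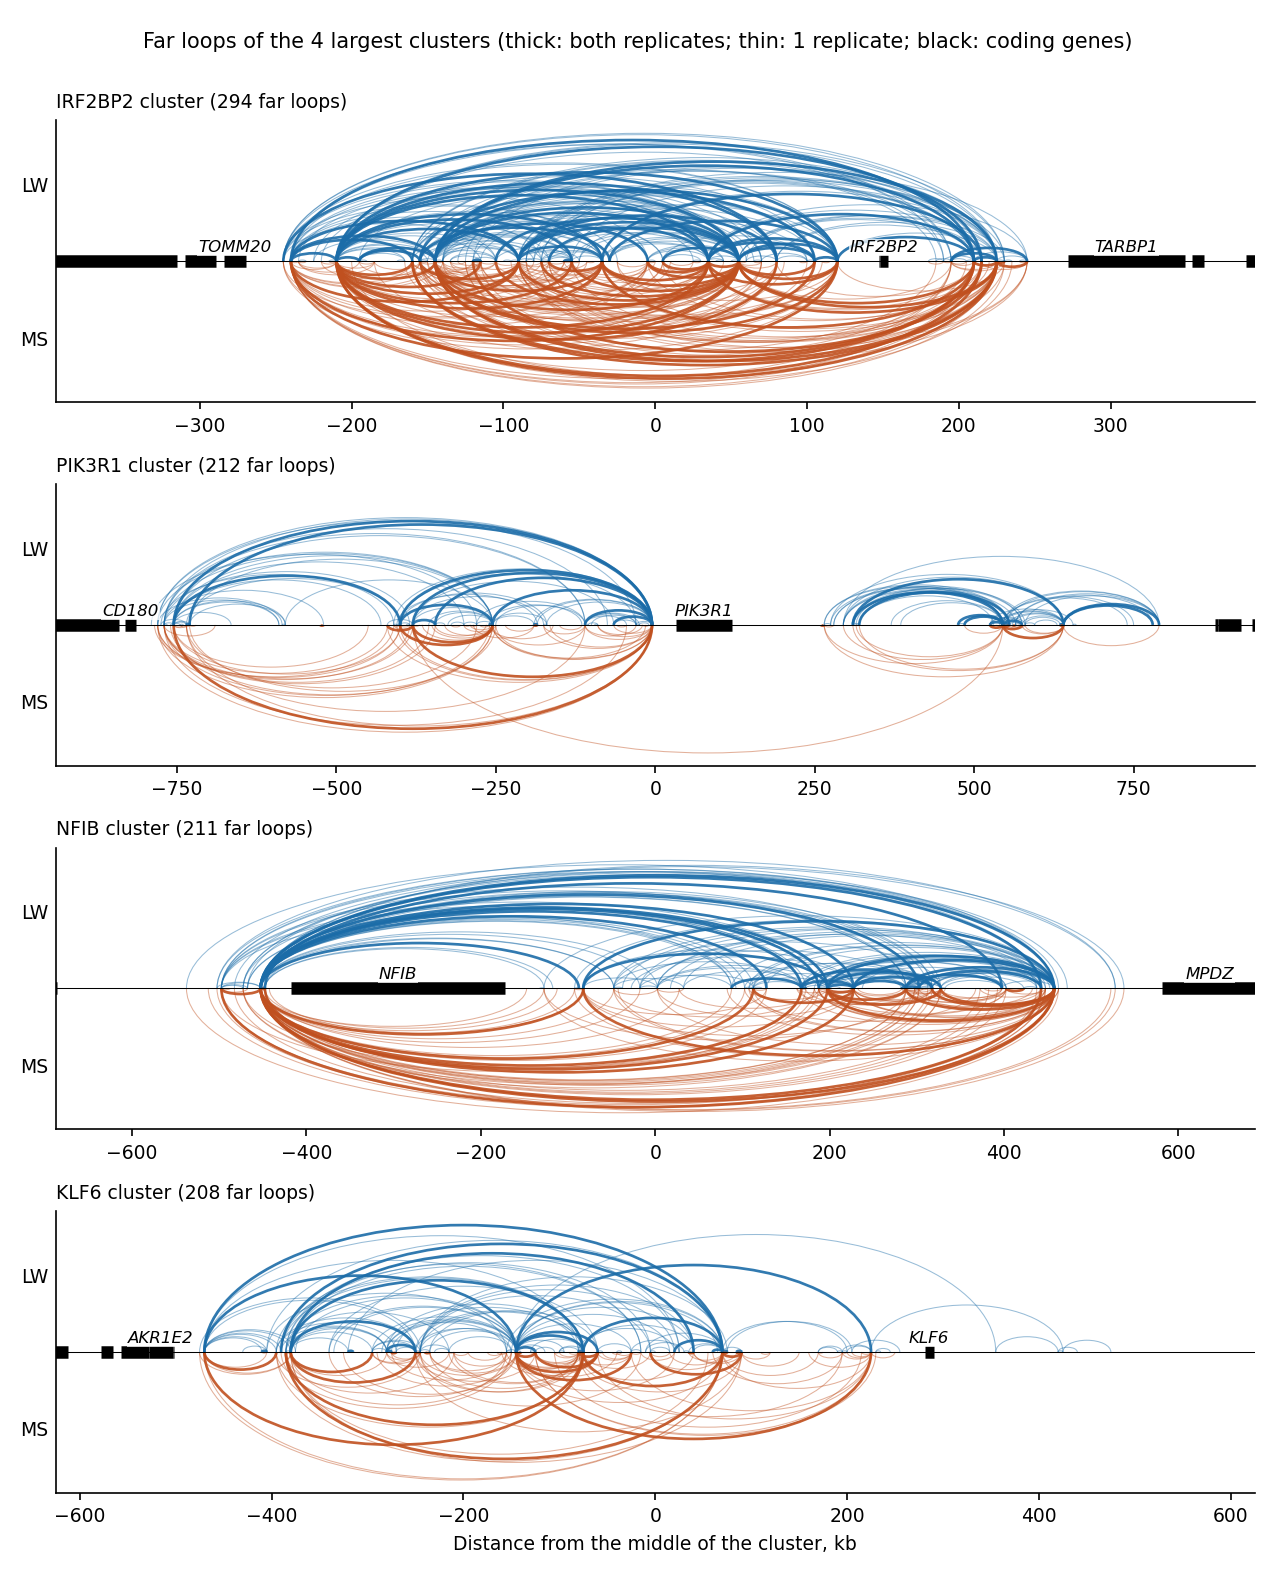
Far loops of the 4 largest clusters, drawn as arcs between their anchors against the distance from the middle of each cluster (x axis, kb), with LW loops above the line and MS loops below it, thick arcs for loops listed in both replicates of the breed and thin arcs for loops in 1. Black boxes are coding genes, of which those beside and inside the clusters are named. Arc height grows with loop distance. Arcs cross IRF2BP2 and NFIB in both breeds, while 1 arc crosses PIK3R1 and 2 cross KLF6.

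The fifth and sixth clusters enclosed no coding gene. On chromosome 3, from 97225001 to 97560000, 181 loops filled the interval between ZFP36L2, which marks AU-rich messenger RNAs for decay, and HAAO, an enzyme of tryptophan breakdown. ZFP36L2 was reached from 29 of 61 anchors and THADA, a gene behind it, from 11, but HAAO from 0, although HAAO was the nearest gene of 31 far anchors and ZFP36L2 of 30. On chromosome 14, from 1190001 to 1655000, 164 loops lay between GADD45G, a growth arrest gene induced by stress, and DIRAS2, a small GTPase, and GADD45G was reached from 31 of 59 anchors. DIRAS2, 309.8 kb beyond the last anchor, was reached from 0, so that in both clusters 1 flanking gene was reached and the other was not.

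On chromosome 1, from 4245001 to 4940000, 152 loops surrounded QKI, an RNA-binding protein that directs splicing in muscle, and 16 of them ran over it. QKI was reached from 19 of 59 anchors, with 8 and 12 loops in LW and 11 and 9 in MS. Its busiest anchor held 34 far loops at a distance of 482.6 kb from QKI. On chromosome 17, from 51355001 to 51995000, 146 loops extended from B4GALT5, a galactosyltransferase, to PTPN1, the phosphatase that switches off the insulin receptor, with 8 coding genes inside. Here CEBPB, a transcription factor of fat and inflammation, was reached from 21 of 50 anchors and PTPN1 from 0, and the loops numbered 63, 42, 67 and 32. Only 1 of the 146 loops ran over a coding gene. When only loops in at least 2 libraries were joined, a cluster of 34 loops lay from 51750001 to 51980000. It stood between CEBPB and PTPN1 and enclosed no coding gene.

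Gene lists chosen with earlier results of these data known were compared with all genes by their counts. Of 56 developmental regulators known for long-range enhancers, 27 (48.2%) were the nearest gene of a far anchor and 26 (46.4%) were reached by a loop from one, against 9.29% and 6.80% of all 19533 gene symbols. The other lists, given below, lay above these shares of all genes as well, so the excess was not particular to developmental regulators. FOXO1, a transcription factor of muscle wasting, was the nearest gene of 33 far anchors and was reached from 29, with 18 and 11 contact loops in LW and 16 and 9 in MS. SOX4 was nearest to 9 but reached from 22, and TCF4 was nearest to 9 and reached from 0. Being nearest and being reached thus did not coincide for each gene, and genes with wide empty flanks can be near more bins than others.

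Of 28 placed myogenic and muscle growth regulators, 8 (28.6%) were nearest to a far anchor and 8 (28.6%) were reached from one. PPARGC1A, a coactivator of mitochondrial genes, was nearest to 18 far anchors with 30 far loops but was reached from 0. EYA4, a transcriptional coactivator of muscle development, was nearest to 13 and reached from 5. SIX4, a homeobox factor of muscle development, was nearest to 0 and yet was reached from 6 far anchors. NR4A3, a nuclear receptor that rises with muscle activity, was nearest to 6 and reached from 13, with 4 and 10 contact loops in LW and 3 and 9 in MS.

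MYOD1, the master regulator of muscle fate, was the nearest gene of 1 far anchor, whose far loop was listed in all 4 libraries, and it was reached from 2 far anchors. MYF5, MYF6, MYOG, MSTN, PAX3 and PAX7 were neither nearest to nor reached from any. Of 23 placed circadian and stress genes 7 (30.4%) were nearest and 9 (39.1%) reached. The highest counts were those of MYC, reached from 27 far anchors, CEBPB, from 21, and JUN, from 20, followed by FOS and KLF9 with 4 each. Of the clock genes, ARNTL was nearest to 4 and reached from 0, BHLHE40 was nearest to 3 and reached from 3, and BHLHE41 and CRY2 were reached from 2 and 1. PER1, PER2, PER3, CRY1, CLOCK, CIART, NR1D1, NR1D2, DBP and TEF had 0 on both counts, as had the stress and hormone response genes EGR1, CEBPD and KLF15. Of 15 adipocyte, fibroblast and other non-muscle genes 7 (46.7%) were nearest and 7 (46.7%) were reached. They were CDH5, the cadherin of vessel lining, with 11 far anchors, DCN, the matrix proteoglycan decorin, with 10, COL1A2 with 6, COL3A1 and LPL with 3 each, and PDGFRA and FABP4 with 1 each, and the other 8 had 0 on both counts.

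No muscle microRNA of the fixed list lay on a far anchor. For most of them the rule fixed this, since their bins overlapped a coding gene or lay 8.15 kb from one. A 5-kb loop at 1 of those bins was listed in all 4 libraries. MIR206 and MIR133B sit together on chromosome 7 between PKHD1 and IL17A, at least 28.6 kb from either gene, and their bins had 0 far loops and 1 loop each, in 1 library. Far anchors did lie on 6 microRNA genes, with 8 far loops at MIR193A, 6 at MIR125B-1, 4 each at MIR365-1 and MIR365-2, and 1 each at MIR7143 and MIR9804. MIR193A lay just inside the limit, 20.8 kb from RAB11FIP4.

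Far loops listed in all 4 libraries numbered 418, in 224 clusters, and their median distance was 30 kb. Their median strengths of 7.54, 9.66, 5.93 and 7.78 in the 4 libraries stood above those of all far loops given earlier. The strongest by the mean of 4 libraries joined the bins that start at 241020001 and 241120001 on chromosome 1, between SEC61B, part of the protein translocon, and NR4A3. Its strength was 77.7 in replicate 1 and 173 in replicate 2 of LW, then 45.3 and 214 in those of MS. In both breeds replicate 2 was the stronger.

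The next loop lay on chromosome 2 between GALNT18, a glycosyltransferase, and ZBED5, with strengths of 39.9, 185, 27.1 and 113. The third lay on chromosome 7 between LY86, an immune cell surface protein, and RREB1, a zinc finger factor of RAS signalling, with 42.2, 143, 25.4 and 121. A pair came from the IRF2BP2 cluster and met at the anchor 56605001 to 56610000, which overlaps the non-coding genes LOC110256752 and LOC106506002. The shorter of that pair spanned 15 kb and had strengths of 43.5, 119, 24.6 and 90.1. The longer spanned 355 kb over IRF2BP2, with 30.6, 92.1, 31.9 and 72.9. In these 4 loops replicate 2 again lay above replicate 1 in both breeds.

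The remaining strong loops lay beside QKI on the side of PDE10A, beside JUN, and between CEBPB and PTPN1. The QKI loop spanned 125 kb. Its strengths were 43.5 and 60.2 in LW, replicate 1 first, and 45.7 then 77.2 in MS. The JUN loop, between FGGY and JUN, the AP-1 subunit, gave 45.6, 94.0, 24.4 and 51.9. The loop between CEBPB and PTPN1 gave 29.0, 84.6, 40.3 and 54.2, and both of its anchors overlap the non-coding gene LOC110257431. The values of the breeds overlapped for each of the 8 loops.

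Far loops over 1 Mb were rare, 26 in all, of which 8 were in 2 or more libraries. The longest of these spanned 1850 kb on chromosome 3, over MEIS1, a homeobox factor, and ETAA1 and between C1D and SPRED2, an inhibitor of growth factor signalling. It was listed once per breed, at 9.42 in LW replicate 2 and 3.44 in MS replicate 1. The next spanned 1520 kb on chromosome Y between LOC110257943 and LOC110257914, with an anchor on the non-coding gene LOC110257902, and was listed at 2.18 and 2.98 in the LW libraries alone.

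A pair of long loops of 1355 and 1255 kb ran from the anchors of the strongest far loop to a single bin 55.02 kb from CAVIN4, a caveolar protein of muscle, on the non-coding gene LOC110255983. The first was in 3 libraries, at 8.96 in LW replicate 2 and 5.90 and 10.1 in MS replicates 1 and 2, and the second in 2, at 2.56 in LW replicate 1 and 3.25 in MS replicate 2. Both passed over NR4A3 and 7 other genes and ended between CAVIN4 and PLPPR1. The fifth loop, of 1080 kb on chromosome 5 between PLEKHG7 and DCN, passed over BTG1, a brake on cell division, with an anchor on the non-coding gene LOC102159901. It was listed at 8.21 in LW replicate 1 and 2.75 in MS replicate 2.

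Strength was then compared between the breeds over all 37791 loops listed in at least 2 libraries, of which 3619 were far loops. A loop absent from a list was given a strength of 0, and limma was fitted on quantile-normalised log2(strength + 1). By limma 0 far loops had an adjusted p under 0.05 (background 0.0% of all loops tested), and the smallest adjusted p of any loop was 0.168. At an unadjusted p under 0.05, 754 far loops (20.8%) were called, against a background of 17.9% of all loops. By the study's threshold, an absolute log2 fold change above 1.5 with that p, 450 far loops (12.4%) were higher in LW, against a background of 9.84% of all loops, and 304 (8.40%) in MS, against 8.05%. Values did not overlap in 956 far loops (26.4%) with both LW libraries above both MS libraries, against a background of 22.3%, and in 417 (11.5%) the other way, against 11.5%.

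Many of the loops without overlap were listed in both libraries of 1 breed and neither of the other, and these passed the filter only through the breed where they were present and had to differ. There were 640 such far loops in LW, 41.0% of those in both LW libraries, and 290 in MS, 26.95% of those in both MS libraries. Among other loops the shares were 34.8% in LW and 24.8% in MS. Many had a loop of the other breed close by. A loop of MS lay within 1 bin at both anchors for 185 of the 640 (28.9%) and within 2 bins for 287 (44.8%), leaving 353. A loop of LW lay within 1 bin for 154 of the 290 (53.1%) and within 2 bins for 211 (72.8%), leaving 79. Among other loops the shares within 2 bins were 60.5% in LW and 78.7% in MS. The LW lists were longer than the MS lists, and the part of list length in these shares was not tested.

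The 10 far loops with the smallest p in the 2 directions showed the same. The LW loop between NYAP2 and IRS1, the insulin receptor substrate, spanned 85 kb and had strengths of 29.3 and 45.4 in LW and was not listed in MS, a log2 fold change of 5.16 ± 0.48 (SE, limma, adjusted p = 0.168). Within 1 bin of it, MS had a loop of 11.04 and 33.3. The LW loop between LRRC74A and IRF2BPL, a relative of IRF2BP2, stood at 32.0 and 65.3, and MS loops of up to 31.7 and 47.3 lay within 1 bin. Both exact loops were absent from MS while a neighbour was present in both MS libraries.

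The LW loop between ARL6IP6 and RPRM, a gene of cell cycle arrest, was the single one of the 10 with 0 loops of the other breed within 2 bins. Its anchors began at 60900001 and 60935001 on chromosome 15, at least 200.7 kb from either gene, and its strengths were 25.7 and 54.0 in LW. The LW loop of 5 kb between NCOA1, a nuclear receptor coactivator, and LOC106504180 stood at 16.9 and 24.4, and its neighbour in MS only at 2.20 and 2.43. Among those of the 10 with a loop of the other breed within 2 bins, the NCOA1 loop kept the widest gap to its neighbour.

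Beside BCL6, a transcriptional repressor, each breed had its own loop from the same anchor at 125555001 to 125560000 on chromosome 13, toward LOC106508360. The LW loop spanned 30 kb with strengths of 17.3 and 30.8, and the MS loop spanned 20 kb with 17.1 and 38.7. The far ends were 2 bins apart, so that neighbouring contacts of the same anchor stood among the highest in LW (log2 fold change 4.49 ± 0.51 SE) and among the highest in MS (-4.85 ± 0.52 SE), both with a limma adjusted p of 0.168.

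The other MS loops repeated this. Between TSEN15, a tRNA splicing subunit, and C9H1orf21 the MS loop had 22.7 and 41.6, and LW had a loop of 17.7 and 51.6 within 1 bin. Between COG6, a Golgi protein, and FOXO1 it had 13.2 and 18.6, against up to 16.1 and 35.6 in LW. Between OPA1, which fuses mitochondria, and HES1, a target of Notch, it had 12.1 and 15.3, against up to 12.3 and 29.9 in LW. Between MKLN1 and KLF14, a transcription factor of fat tissue, it had 24.0 and 19.2, against up to 19.0 and 18.8 in LW within 2 bins. In the first 3 of these 4 the stronger LW neighbour exceeded both MS values, and in the last it stood just under the lower of them.

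**Figure D3:**
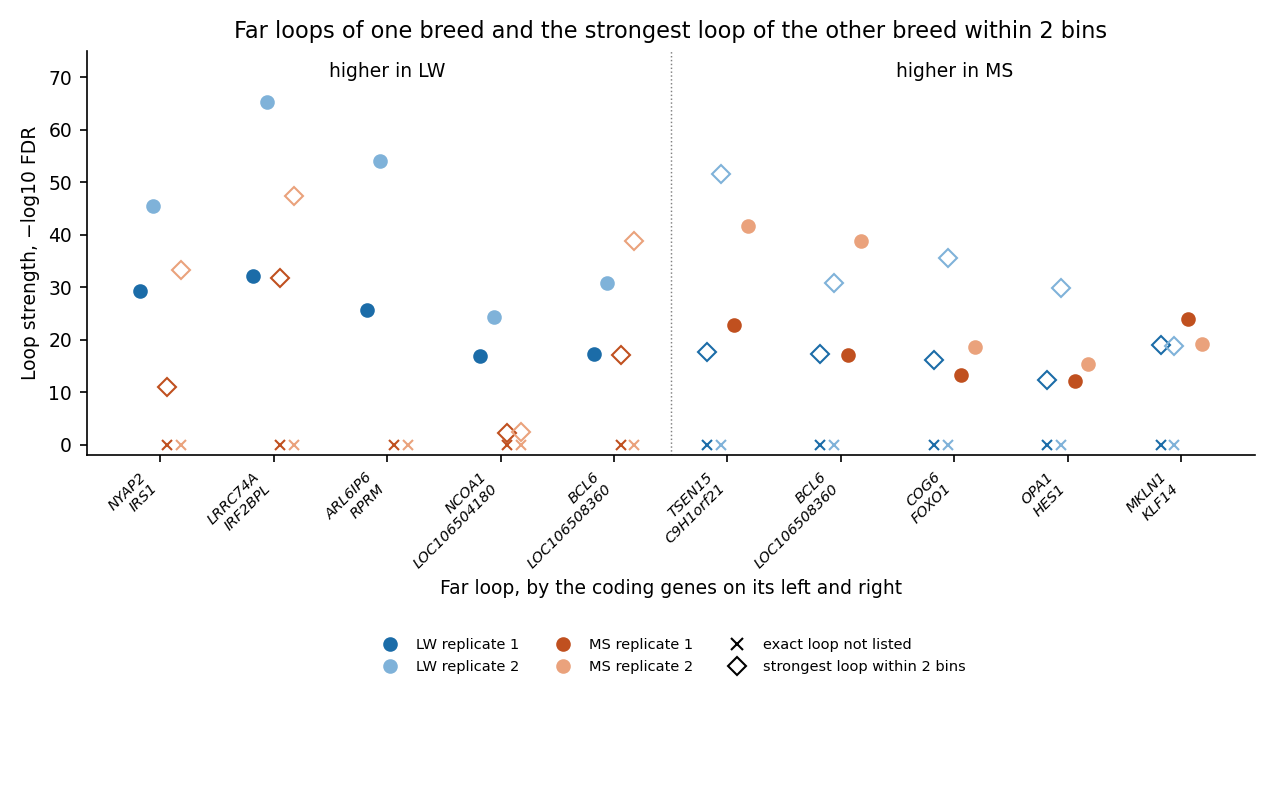
Strength (y axis, negative log10 FDR) of the 10 far loops with the smallest p between breeds, named by the coding genes to their left and right, with 1 filled point per library that lists the exact loop, a cross at 0 for each library that does not, and an open diamond for the strongest loop of that library within 2 bins at both anchors. Diamonds stand near the filled points in most columns; the ARL6IP6 and RPRM column has none, and in the NCOA1 column they stand at 2.20 and 2.43.

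Clusters were compared as wholes next. As a share of the far loops of its library, a cluster was higher in both LW than in both MS libraries in 56 of the 266 clusters of 10 or more loops (21.1%), and the other way in 71 (26.7%). Among the 47 largest, the mean shares differed by over 2-fold in 5, named here after their values were seen. The cluster between SOX4 and NRSN1 on chromosome 7, around the prolactin gene PRL and HDGFL1, had 38 and 23 loops in LW and 8 and 3 in MS, a ratio of shares of 4.10. The cluster around ZNF608, a zinc finger gene on chromosome 2, had 47 and 36 loops in LW and 8 and 12 in MS, a ratio of 2.85. In the opposite direction stood a cluster of chromosome X between TMSB4X, the actin-binding thymosin, and EGFL6, with 16 and 6 loops in LW and 33 and 14 in MS, a ratio of 0.332.

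The last pair were also higher in MS. Between CD83, a surface protein of antigen-presenting cells, and JARID2, a Polycomb cofactor, LW had 22 and 11 loops and MS had 34 and 22, a ratio of 0.415. The transcript ENSSSCG00000044834 is made inside that cluster, at 10797875 to 10925845 of chromosome 7, and had 906421 and 1003089 GRID-seq RNA reads in the LW replicates and 1393716 and 1673556 in those of MS. Around ETS1, a transcription factor of lymphocytes and vessels, LW had 19 and 10 loops and MS had 29 and 16, a ratio of 0.460. No test was made of these 5, which were picked for their ratios. The IRF2BP2 cluster, the largest, held 2.30% and 2.41% of the LW far loops and 3.42% and 3.07% of the MS far loops.

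Chromatin-associated RNAs were listed on far anchors somewhat less often than on other anchors. In LW replicates 1 and 2, 37.8% and 47.8% of the far anchors, and in their MS counterparts 54.0% and 61.5%, held at least 1 listed RNA bin. The other anchors stood at 41.9%, 54.6%, 58.4% and 67.1%. The difference was -5.19 percentage points ± 1.25 (SD, n = 4 GRID-seq libraries, exact sign-flip p = 0.125), lower in 4 of 4. Without the 10 RNAs that had most bins on other chromosomes it shrank to -0.716 (exact p = 0.625), with -1.59 and -3.83 in LW but 1.28 and 1.28 in MS, where far anchors then stood above the others. Against other anchors outside coding genes it was -0.976 (exact p = 0.25). In whole tissue, fewer cells of a type and less RNA per cell cannot be told apart.

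The kind of RNA differed more than the total. RNAs from other chromosomes were on 33.2% of far and 40.4% of other anchors on average, a difference of -7.24 points ± 1.43. RNAs of the same chromosome, made more than 10 kb away, were on 28.8% of far and 25.0% of other anchors, a difference of 3.71 points ± 1.69. RNAs made within 10 kb were on 1.15% of far anchors and 8.33% of the others, a difference of -7.18 ± 1.12, which the rule fixes in large part, since far anchors have no coding gene near. Each difference had 1 direction in 4 of 4 libraries (exact sign-flip p = 0.125).

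Where an anchor held a same-chromosome RNA made more than 10 kb away, the nearest was closer for far anchors than for others. RNAs made within 10 kb, which were on more of the other anchors, were left out of this distance. The median distance was 723, 714, 544 and 717 kb in the 4 libraries, against 1357, 1478, 2228 and 1513 kb on the others. Of the far anchors of a library, 0.765% to 1.39% overlapped the body of a listed RNA. A library listed only 519 to 681 RNAs, and the matching share of other anchors was not counted. Nothing is therefore read from this about the long non-coding genes on far anchors.

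The RNA on most far anchors was the transcript ENSSSCG00000048037, made on chromosome 3, with 542 and 980 far anchors in LW (6.69% and 12.1%) and 1202 and 1014 in MS (19.5% and 16.4%). TTN, the giant spring protein of the sarcomere, was on 6.16% and 7.37% in LW and 14.5% and 11.3% in MS. These RNAs stood higher in each MS library than in either LW library, and both were on a larger share of the other anchors than of the far anchors in 4 of 4 libraries, as for ENSSSCG00000048037 with 9.09%, 16.5%, 24.4% and 21.9%.

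Of the 10 leading RNAs, ENSSSCG00000048856 was on 1.75% to 9.54% of far anchors and ENSSSCG00000044834 on 2.70% to 3.68%. MBNL1, a splicing regulator of muscle, RORA, a clock-linked nuclear receptor, NEB, the thin filament ruler nebulin, MYO18B, an unconventional myosin, and ACTN2, the Z-disc alpha-actinin, followed. MBNL1 was on 203, 315, 106 and 164 far anchors in the 4 libraries, of which 186, 286, 106 and 152 lie on its own chromosome, and was above its share on other anchors in each library. ACTN2 was on 0.901% and 0.889% of far anchors in LW and 1.41% and 1.80% in MS, against 0.302%, 0.401%, 0.562% and 1.01% of other anchors. Most of these far anchors belonged to the IRF2BP2 cluster, 64 of 73 and 62 of 72 in LW and 68 of 87 and 68 of 111 in MS.

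**Figure D4:**
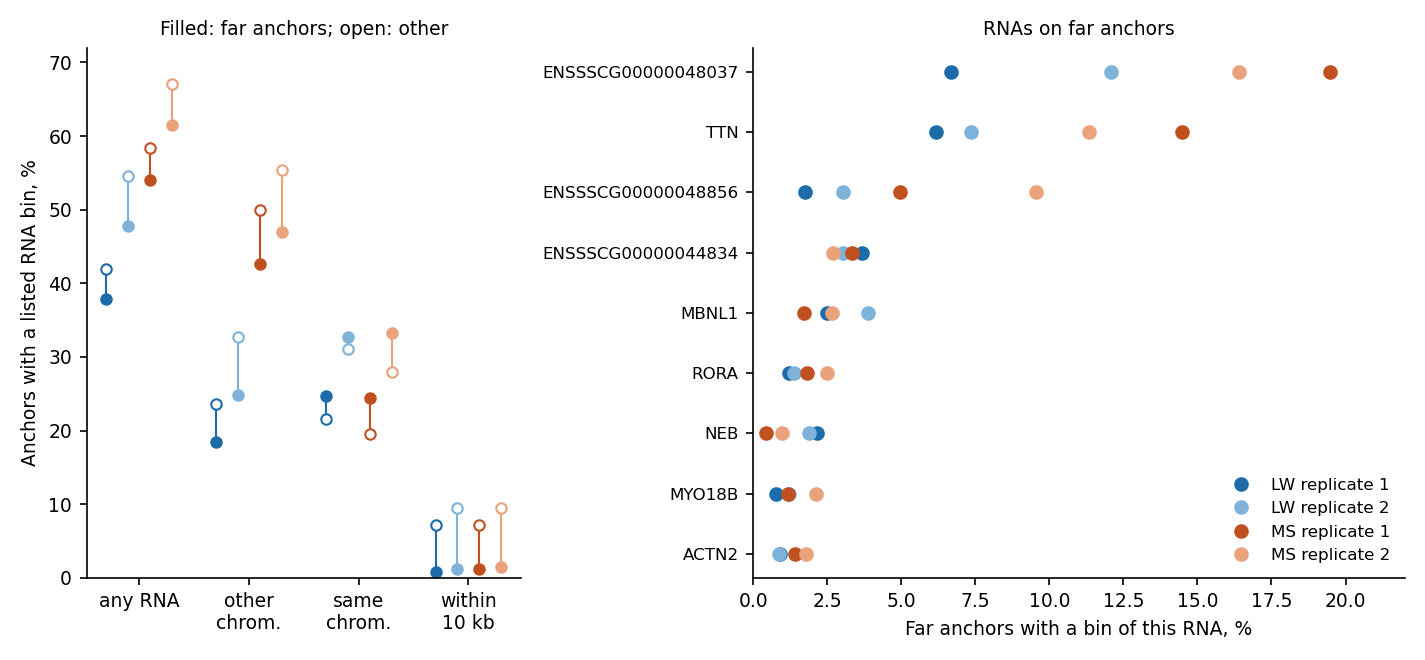
Left, share of anchors (y axis, %) with a listed bin of any RNA, of an RNA from another chromosome, of an RNA of the same chromosome made over 10 kb away, and of an RNA made within 10 kb, with filled points for far anchors and open points for other anchors of each GRID-seq library. Right, share of far anchors (x axis, %) with a bin of each of 9 of the 10 RNAs on most far anchors. Filled points lie below open ones except for RNAs of the same chromosome, and ENSSSCG00000048037 runs from 6.69% to 19.5%.

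The clusters differed widely in the RNAs of their own chromosome upon them, the only RNAs counted singly here. In the IRF2BP2 cluster the RNA of ACTN2, made 1407 kb away, was on 64 and 62 of 65 anchors in LW and on all 68 in MS, while IRF2BP2 RNA itself was on 8, 15, 5 and 26. MYO18B RNA, made 12462 kb away on the same chromosome, was on 16 and 32 anchors in LW and 43 and 62 in MS. The PIK3R1 cluster carried the RNA of the gene it encloses, on 67 and 74 of 83 anchors in LW and 79 of 79 in both MS libraries. Likewise QKI RNA was on 51 of 51 anchors in both LW and 52 of 52 in both MS libraries.

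The other clusters lacked such an RNA among those of their own chromosome. With RNAs of other chromosomes included, 20.8% to 95.3% of the anchors of these clusters held an RNA in a library. KLF6 RNA was on 0, 0, 1 and 0 anchors of the KLF6 cluster, and NFIB was not among the RNAs on its cluster, where RORA, made 96582 kb away, was on 7, 0, 14 and 38 anchors. CEBPB RNA was on 20 of 43 anchors in LW replicate 2 and on 0 in the other 3 libraries. GADD45G and ZFP36L2 RNA were on 4 and 1 anchors of their clusters, in MS replicate 2 alone, and PALLD RNA, of an actin-bundling protein made 19023 kb away, was on 15 and 11 of 50 anchors of the GADD45G cluster in LW and 18 and 14 of 45 in MS. By RNAs of the same chromosome, some of these 8 clusters thus carried 1 RNA on most anchors in all 4 libraries, as for ACTN2, PIK3R1 and QKI. The others carried a changing set on part of their anchors, or none.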

How the data were processed

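H3K27ac BL-HiChIP and GRID-seq were made from longissimus muscle of LW and MS piglets aged 2 weeks. For the BL-HiChIP files the authors trimmed linkers, aligned pairs to Sscrofa11.1, kept valid pairs and called loops of 5 kb to 2 Mb from H3K27ac peaks at 5-kb resolution with FitHiChIP, library by library; the deposited column holds p-value-like numbers below 0.01, read here as the FDR. For its later analyses the study merged the samples of each breed, and it reported high concordance between replicates from contact counts and HiCRep. The lists used here are those of single libraries. They hold no contact counts, so the depth behind a loop is unknown and no interval is given. The GRID-seq files deposited by the authors give whole-number read counts per RNA (7172517 to 9943666 over 519 to 681 listed RNAs) and a background-corrected signal per RNA and 1-kb bin. Of the deposited values, only the presence of a bin was used for the signal. The submitters' processing notes name Trim Galore 0.4.5, Bowtie2 2.2.5, SAMtools 1.9 and MACS2 2.1.2.

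From these, far loops were defined with the RefSeq gene positions of Sscrofa11.1 (19550 placed protein-coding genes; 1100 on unplaced sequence could not be used). The 2 FDR values of 0 were set to a strength of 320. Libraries were the unit: exact permutation tests for LW against MS, exact sign-flip tests for far against other loops, two-sided, and limma 3.58.1 (R 4.3.3) with Benjamini-Hochberg adjustment over all loops listed in at least 2 libraries, in place of the study's DESeq2 on gene scores, since strengths are not counts. The limma script was tested on simulated data. Clusters were built with networkx 3.6.1. Loops and RNAs named are the 8 largest clusters, the 8 strongest loops of all 4 libraries, the 5 longest in at least 2, up to 5 per direction of the breed test, and the 10 RNAs on most far anchors; genes named are those beside or inside them and members of fixed lists. The members and lists were chosen with earlier results of these data known. Alternatives changed the gene distance to 10 or 50 kb, the annotation to all genes, the FDR to at most 0.001, the summary, the pseudocount, the filter, and the libraries used. No genome sequence was used here. Some genes that the rules select are not reported here.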

Additional observations from a re-analysis of the deposited data

How the results depend on the processing

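With 2 libraries per group no exact test could pass 0.05, so only directions can be compared. The higher far share in LW (0.824 points), the shorter distance, the lower strength and, in the mean of 4 libraries, the lower RNA share of far loops kept their direction under every alternative run for them: gene distances of 10 and 50 kb, all annotated genes, and each library left out, with further settings for some. The RNA share of far anchors turned higher in both MS libraries (1.28 points in each) and stayed lower in LW (-1.59 and -3.83) without the 10 RNAs with most bins on other chromosomes. The far share difference was 1.05 points within replicate number 1 and 0.599 within replicate number 2. The share of loops found in the other replicate, -0.291 points, changed sign within distance bands (0.797) and at an FDR of at most 0.001 (0.565). It widened to -1.98 with all annotated genes and to -2.17 with anchors matched within 1 bin. The exact sign-flip p was 0.125 in both, over 4 values that rest on 1 pair of lists per breed. With each library left out, which leaves the other breed only, this difference ran from -0.725 to 0.144. The causes were not tested. The number of far loops past the study's threshold, 754, fell to 482 with the 50-kb limit and to 16 with loops in at least 3 libraries, where fewer loops are tested by construction, to 77 with a pseudocount of 5 and to 461 with loops in at least 1 library. The 50-kb limit left 285 higher in LW and 197 in MS, the pseudocount of 5 left 38 and 39, and loops in at least 3 libraries left 5 and 11, which turns the excess in LW. With a pseudocount of 0.1, which widens the gap between a listed and an absent loop, 705 far loops (19.5%) had an adjusted p under 0.05 by limma, against 16.5% of all loops. With each library left out the count ran from 656 to 868. Without quantile normalisation 649 were higher in LW and 292 in MS. The replicate block gave 771 far loops, with 0 adjusted calls; the numbers are not stated to mark a shared animal or day, and the deviations of same-numbered libraries had a correlation of 0.347 over all loops and 0.309 over far loops. The 10 loops named for the breeds were listed in 1 breed alone, which fixes their direction under each alternative, so no stability is read from them. The counts of loops of 1 breed fell from 640 to 353 and from 290 to 79 with neighbours within 2 bins, a setting added after seeing the data, like the clusters of loops in at least 2 libraries. The loop lists give no counts, which limits how firmly an absent loop can be read.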
